A study of Mus musculus with 19 samples.

Results

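The 10 genes described here encode junction and adhesion molecules that are best known from epithelium and endothelium, measured in sorted type 1 conventional dendritic cells (DC1). Cldn1, F11r and Tjp1 belong to the tight junction, Cdh1 and Cdh17 are cadherins, Epcam encodes an epithelial adhesion molecule, and Pecam1, L1cam, Alcam and Icam1 encode adhesion receptors of the immunoglobulin family. They are 10 of the 23156 genes named in at least 1 of 2 array tables, with 22180 genes named for spleen and 19938 for lymph node arrays. Each gene was read from the brightest probe set annotated to its symbol alone. Every member had 1 such probe set in each table except Cdh1, which had 2 in the spleen table. The list was proposed with results of these arrays known. Cldn1 and Cdh17 were selected on their difference between Batf3-/- and WT spleen DC1, Cldn1 and Pecam1 on that in resident lymph node DC1, and L1cam on that in migratory lymph node DC1. All differences between Batf3-/- and WT below are therefore descriptions with no p-value, and so is the difference between those differences.

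All mice were C57Bl/6j, and the labels give no age. Spleen DC1 of female mice came from 3 groups: WT without the reporter (WT Irf8VENUS-, 2 arrays), WT with it (WT Irf8VENUS+, 3 arrays) and Batf3-/- Irf8VENUS+ (3 arrays). Irf8VENUS is a fluorescent reporter of Irf8, and Batf3 encodes an AP-1 family transcription factor on which DC1 depend. Skin draining lymph nodes (SDLN, taken from inguinal, cervical and brachial sites) gave 4 groups, all Irf8VENUS+: resident WT (3 arrays), migratory WT (2), resident Batf3-/- (3) and migratory Batf3-/- (3). The spleen gate took B220- SiglecH- CD11c+ MHCII+ cells, with CD172a+ as the labels write it (the SDLN label has CD172-, and whether the spleen sign is a slip was not settled), that were CD24+ and, on all but replicate 3 of both Irf8VENUS+ groups, also XCR1+. The SDLN gate took B220- EpCam- CD11c+ MHCII+ CD24+ CD172- cells, so the protein of the member Epcam was itself used to remove cells. Resident cells were MHCIIint CD11chi and migratory cells MHCIIhi CD11cint. In SDLN, arrays with the same replicate number carry the same code in their titles, whose meaning the labels do not state, and differences within a code are given beside the fitted ones. Nothing in the labels says which arrays came from separate mice, so p-values measure the spread between these samples. The study set Batf3-/- against WT DC1 in each population, the reporter against no reporter in spleen, and migratory against resident DC1.

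Claudins and JAM-A (F11r) sit at tight junctions, where the scaffold ZO-1 (Tjp1) ties them to actin, while classical cadherins such as E-cadherin (Cdh1) hold adherens junctions through catenins. Dendritic cells carry some of the same molecules. Langerhans cells, the dendritic cells of the epidermis, are known for EpCAM, E-cadherin and claudin-1, and dendritic cells that travel from skin to lymph node are known to loosen epithelial contacts. PECAM-1 lines endothelium but is also carried by leukocytes, ICAM-1 binds the integrin LFA-1 on T cells, and ALCAM binds CD6 on T cells.

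The sequences just upstream of Cldn1 and F11r are shown because Cldn1 differed between Batf3-/- and WT in all 3 populations, and because F11r was the member with a match to the AP-1 motif that BATF3's family binds. Both are RefSeq sequences of build GRCm38.p6, 5′ to 3′ on the gene's own strand, and end at the base before the gene's start. Capitals mark the AP-1 match.
Cldn1, chr16:26371840-26371959, minus strand: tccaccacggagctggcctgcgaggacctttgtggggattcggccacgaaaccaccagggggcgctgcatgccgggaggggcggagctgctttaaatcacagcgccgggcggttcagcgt
F11r, chr1:171437441-171437560, plus strand: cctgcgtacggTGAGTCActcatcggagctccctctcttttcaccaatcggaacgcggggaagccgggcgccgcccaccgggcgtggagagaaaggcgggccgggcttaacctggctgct
The motifs searched on both strands were AP-1 (TGANTCA), an IRF motif (GAAA, then NN, then GAAA) and the NF-kB motif. RefSeq windows were matched for 7 members, and Cdh1, Cdh17 and Pecam1 were not analysed here. These windows were longer than the stretches printed above: they began further upstream and ran past the gene's start. Among 32851 windows of the same full length over all genes, 7.81% held the AP-1 motif, 3.44% the IRF motif and 11.2% the NF-kB motif. In the 7 members' windows the 1 match was that of F11r, whose first base lies at -109 from the gene's start. The match is a description of letters, not a binding site. For NF-kB 1 strict form of the motif was searched, and sites that depart from it were not counted. A window without a match, that of Icam1 included, is therefore not shown to lack an NF-kB site.

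The deleted gene was low where the labels say it should be. Batf3 lay between 5.29 and 7.08 (log2 intensity) on the 3 Batf3-/- spleen arrays and between 9.42 and 10.41 on the 5 WT spleen arrays. In SDLN it lay between 5.50 and 6.17 on the 6 Batf3-/- arrays and between 8.15 and 9.23 on the 5 WT arrays. Of the defining DC1 markers, Xcr1 was 8.99 to 11.43 in spleen and 9.53 to 11.34 in resident SDLN, but 7.85 and 8.07 in migratory WT and 5.83 to 6.46 in migratory Batf3-/- DC1. Resident WT replicate 1 stood apart in markers of other myeloid cells (Sirpa 7.82 against 5.31 and 5.67, Csf1r 6.58 against 4.73 and 5.30). Migratory Batf3-/- replicate 3 stood apart in many genes, members included, so results that rest on it are also given without it. Its summed linear intensity over 14 keratinocyte and other epithelial markers was 618, against 329 to 369 on the other 10 SDLN arrays, while the keratinocyte markers Krt5 (3.88 to 4.11) and Krt14 (3.71 to 4.15) were below the level for testing in its whole group. The part of this signal in that array's member values was not tested. In sorted bulk samples, fewer cells that carry a gene and less RNA per cell cannot be told apart.

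A gene was tested where at least 2 arrays reached the table's median value, 5.04 (log2 intensity) in spleen and 4.82 in SDLN. In spleen 6 of the 10 members passed and in SDLN 7. Cdh1, Epcam and Tjp1 were below that level on all 19 arrays, and F11r on all 8 spleen arrays. Cdh17 passed in both tables through Batf3-/- arrays: in spleen the 3 arrays at or above the level were those of Batf3-/- mice. Counts of called members below are therefore descriptions of those that passed, and "called" means an adjusted p under 0.05 by limma with the Benjamini-Hochberg method over every gene that passed.

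**Figure D1:**
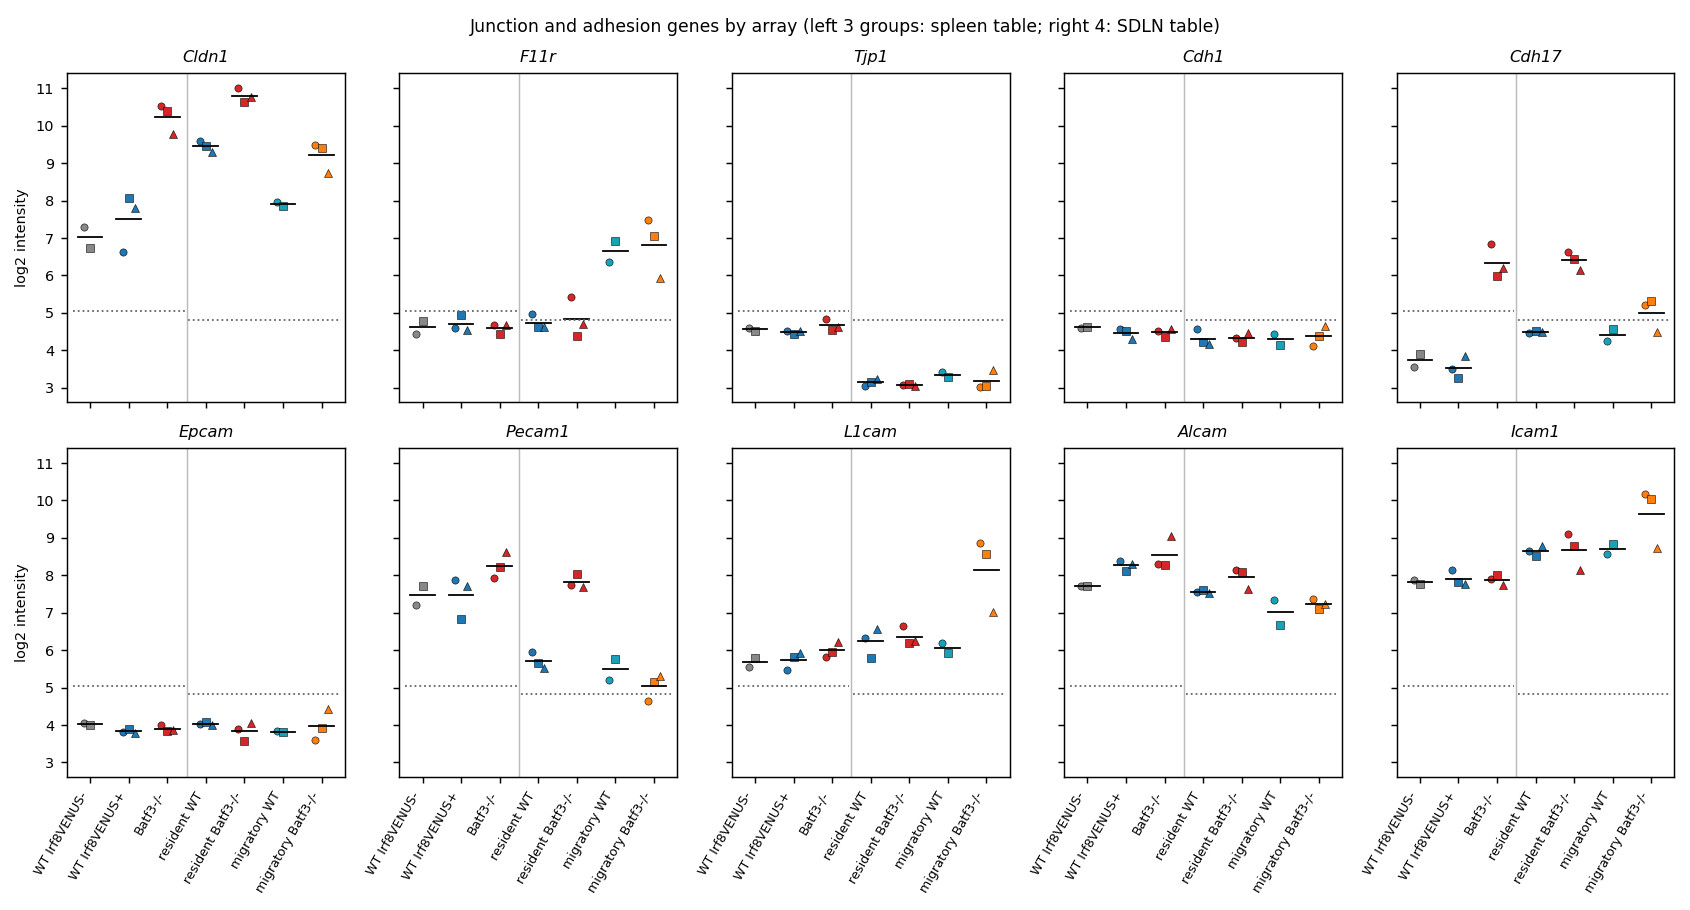
Log2 intensity of the 10 members on each array, by group; the left 3 groups are the spleen table and the right 4 the SDLN table, whose levels are not comparable. Marker shapes are replicates (circle 1, square 2, triangle 3), black bars are group means and dotted lines the level for testing; Cldn1 is highest in the Batf3-/- groups of spleen and resident SDLN, and Cdh1, Epcam and Tjp1 lie below the dotted line throughout.

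Cldn1, which encodes claudin-1, a seal protein of tight junctions, was above the level for testing on all 19 arrays. In spleen its log2 intensity was 7.30 and 6.73 in WT Irf8VENUS-, 6.64, 8.06 and 7.80 in WT Irf8VENUS+, and 10.52, 10.39 and 9.79 in Batf3-/- Irf8VENUS+ DC1. The Batf3-/- arrays all lay above the WT arrays, and the 2 WT groups overlapped. The fitted difference between Batf3-/- and WT Irf8VENUS+ was 2.73 ± 0.39 (log2, SE), or 6.65-fold. It was 3.10 where both CD24 and XCR1 were gated and 1.99 where CD24 alone was. The call was lost when any Batf3-/- array or WT Irf8VENUS+ replicate 3 was left out, with differences of 2.59 to 3.10 in those fits. Against WT Irf8VENUS- the difference was 3.25 ± 0.46, and that call was lost whichever array of the 2 groups was left out.

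In SDLN, Cldn1 was 9.60, 9.46 and 9.29 in resident WT, 11.00, 10.64 and 10.76 in resident Batf3-/-, 7.97 and 7.86 in migratory WT, and 9.49, 9.41 and 8.74 in migratory Batf3-/- DC1. The order of the group means was resident Batf3-/-, resident WT, migratory Batf3-/-, migratory WT, and only the middle groups overlapped. The Batf3-/- minus WT difference was 1.35 ± 0.19 in resident and 1.30 ± 0.22 in migratory DC1. Between arrays that share a title code it was 1.41, 1.18 and 1.47 in resident and 1.52 and 1.55 in migratory DC1. Without migratory WT replicate 1 the migratory difference was 1.35 and no longer called. The migratory minus resident difference was -1.53 ± 0.22 in WT (2.89-fold lower) and -1.59 ± 0.19 in Batf3-/- mice (3.01-fold lower), with no overlap in either. Those arrays also took part in the comparisons that selected Cldn1, so no p is given.

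Cldn1 is itself a Langerhans cell marker, so the other markers of that cell stand beside it. Of 7 such markers outside the member list 6 were measured, of which 6 passed the filter in spleen and 3 in SDLN. No marker but Cldn1 was called higher in Batf3-/- DC1 in any population. Over all genes tested, 0.738% were called in spleen against WT Irf8VENUS+, 0.559% against WT Irf8VENUS-, 1.84% in resident and 9.41% in migratory DC1. With so few markers tested, the lack of other calls shows little. Cd207 (langerin), the first marker on that list, was 7.42 and 7.55 in spleen WT Irf8VENUS-, 5.55 to 6.32 in WT Irf8VENUS+ and 5.10 to 5.13 in Batf3-/- DC1. Every spleen array was thus above the level for testing, and which cells gave this signal was not tested. A fall in Cd207 is therefore not read as a result about Langerhans cells. In SDLN, Cd207 reached 5.74 on 1 resident WT array and lay between 3.87 and 4.65 on the other arrays. The summed linear intensity of the 6 markers was 183 to 426 in resident WT and 153 to 198 in resident Batf3-/-. It was 453 to 495 in migratory WT and 316 to 680 in migratory Batf3-/- DC1. In spleen it was 395 to 429 in WT Irf8VENUS-, 257 to 307 in WT Irf8VENUS+ and 243 to 366 in Batf3-/- DC1. The list also holds the members Epcam and Cdh1.

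F11r encodes JAM-A, a tight junction adhesion molecule that also binds the leukocyte integrin LFA-1. In SDLN it was 4.97, 4.62 and 4.62 in resident WT and 5.42, 4.38 and 4.71 in resident Batf3-/-, with 1 array of each group at or above the level for testing. It was 6.36 and 6.93 in migratory WT and 7.49, 7.05 and 5.94 in migratory Batf3-/- DC1. All 5 migratory arrays lay above all 6 resident arrays. F11r rose in migratory over resident DC1 by 1.91 ± 0.40 in WT (limma adjusted p = 0.00186). In Batf3-/- mice it rose by 1.99 ± 0.35 (limma adjusted p = 0.000762). No fold is given because most resident values lie below the level for testing. The summed Langerhans cell markers given above were also higher on the migratory arrays of each genotype, and their part in F11r was not tested. The Batf3-/- minus WT difference was 0.10 ± 0.35 in resident and 0.18 ± 0.40 in migratory DC1, and the genotypes overlapped in both. In spleen F11r stayed between 4.43 and 4.95 on all 8 arrays. Tjp1, the scaffold ZO-1, ranged from 4.45 to 4.82 in spleen and from 3.01 to 3.47 in SDLN.

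The cadherins went different ways. Cdh1 lay between 4.31 and 4.62 on the spleen arrays and between 4.11 and 4.65 on the SDLN arrays. Its 4 SDLN group means spanned 4.29 to 4.38, so no order among them exceeded their spread. Epcam, the adhesion molecule used as a negative gate in SDLN, was likewise low: 3.78 to 4.05 in spleen, where it was no gate, and 3.58 to 4.43 in SDLN. For both genes the array shows only values below the level for testing, not an absence of RNA.

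Cdh17 encodes LI-cadherin, a cadherin of liver and intestine that does not bind catenins. In spleen it was 3.56 and 3.90 in WT Irf8VENUS-, 3.49, 3.25 and 3.84 in WT Irf8VENUS+, and 6.84, 5.98 and 6.19 in Batf3-/- DC1. The 5 WT arrays were all below the level for testing and the 3 Batf3-/- arrays all above it. The Batf3-/- minus WT Irf8VENUS+ difference of the measured values was 2.81 ± 0.25 (log2), with no fold given because the WT values lie below that level. It was 3.04 where both CD24 and XCR1 were gated and 2.35 where CD24 alone was. Against WT Irf8VENUS- it was 2.56 ± 0.30, and that call was lost when either WT Irf8VENUS- array was left out, with differences of 2.39 and 2.74.

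In SDLN, Cdh17 was 4.46, 4.51 and 4.50 in resident WT and 6.63, 6.44 and 6.16 in resident Batf3-/- DC1. It was 4.24 and 4.57 in migratory WT and 5.20, 5.32 and 4.48 in migratory Batf3-/- DC1. Resident Batf3-/- DC1 were thus set apart from the other 3 groups, whose ranges overlapped in part. The resident Batf3-/- minus WT difference of the measured values was 1.92 ± 0.20, with resident WT below the level for testing, and between arrays that share a title code it was 2.17, 1.93 and 1.66. Within Batf3-/- mice the migratory minus resident difference of Cdh17 was -1.41 ± 0.20. In WT the same difference was -0.09 ± 0.23, with all 5 arrays below the level for testing. The gene passed the filter only through Batf3-/- arrays, so these differences are descriptions with no p. The migratory Batf3-/- minus WT difference was 0.60 ± 0.23. Without migratory Batf3-/- replicate 3 it was 0.86 and was called.

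Pecam1 encodes PECAM-1 (CD31), an adhesion receptor that binds itself between endothelial cells and is also found on platelets and leukocytes. In SDLN it was 5.94, 5.67 and 5.52 in resident WT and 7.74, 8.03 and 7.69 in resident Batf3-/- DC1. It was 5.21 and 5.76 in migratory WT and 4.64, 5.15 and 5.30 in migratory Batf3-/- DC1. Resident Batf3-/- DC1 lay above every other array, and the remaining groups overlapped in part. The resident Batf3-/- minus WT difference was 2.11 ± 0.20 (4.32-fold), and between arrays that share a title code it was 1.80, 2.36 and 2.17. In migratory DC1 it was -0.46 ± 0.23. The migratory minus resident difference within Batf3-/- mice was -2.79 ± 0.20 (6.91-fold lower), a value that uses the resident Batf3-/- arrays on which Pecam1 was selected. In WT the same difference was -0.22 ± 0.23.

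In spleen, Pecam1 was above the level for testing on all 8 arrays. It was 7.22 and 7.71 in WT Irf8VENUS-, 7.87, 6.84 and 7.71 in WT Irf8VENUS+, and 7.93, 8.21 and 8.62 in Batf3-/- DC1. The Batf3-/- arrays were the highest 3, by 0.78 ± 0.28 over WT Irf8VENUS+, and the gene was not called. Endothelial markers stood beside it as follows. Of the 17 blood endothelial markers outside the member list, all were measured, and 8 passed in spleen and 5 in SDLN. None was called between resident Batf3-/- and WT DC1, where 1.84% of all genes tested were called. With so few markers tested, that lack of calls shows little. Their summed linear intensity was 379 to 450 in resident WT and 381 to 394 in resident Batf3-/- DC1. It was 441 to 456 in migratory WT and 470 to 549 in migratory Batf3-/- DC1. In spleen it was 553 to 571 in WT Irf8VENUS-, 532 to 562 in WT Irf8VENUS+ and 481 to 493 in Batf3-/- DC1. The defining marker Cdh5 was 4.27 to 4.38 in resident Batf3-/- and 4.30 to 4.81 in resident WT DC1. Kdr was 4.28 to 4.80 and 4.04 to 5.53 in the same groups, and Emcn 3.05 to 3.16 and 2.80 to 2.97. The summed list and Cdh5 were thus no higher in resident Batf3-/- than in resident WT DC1, and Emcn was slightly higher but below the level for testing.

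**Figure D2:**
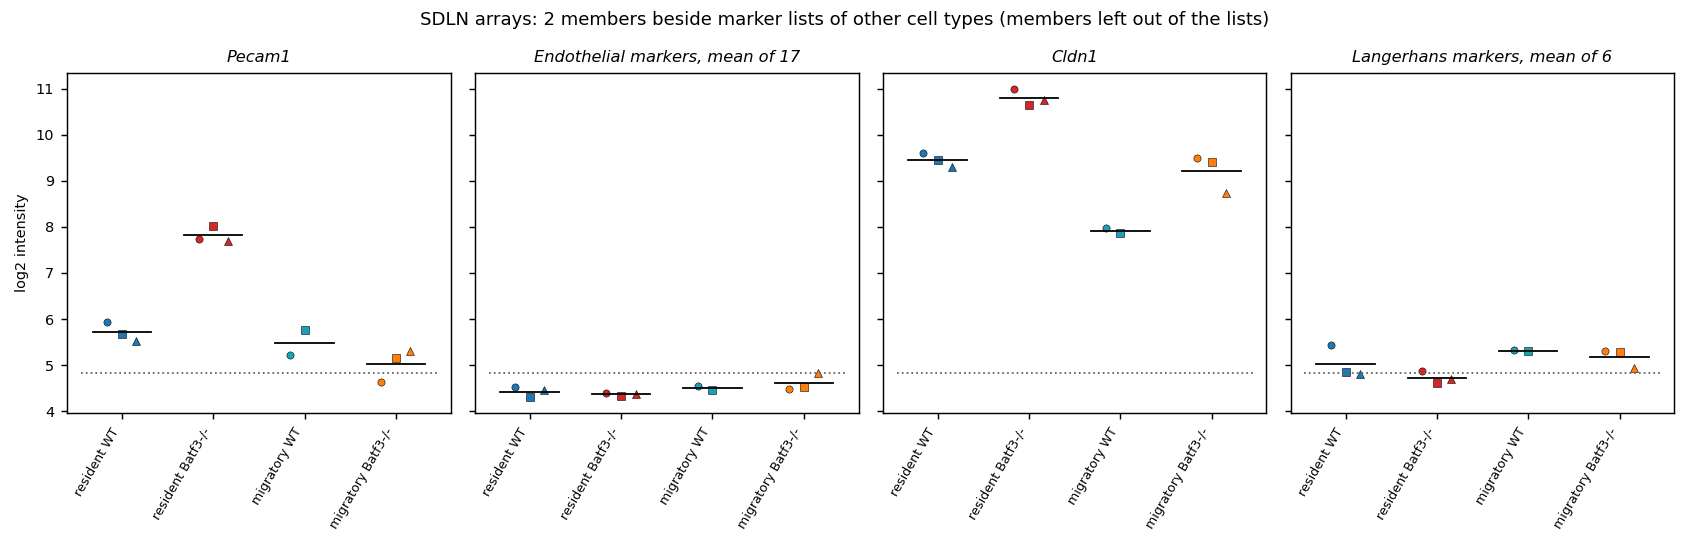
Log2 intensity of Pecam1 and Cldn1 on each SDLN array beside the mean log2 intensity of 17 blood endothelial and 6 Langerhans cell markers outside the member list; marker shapes are replicates, black bars group means and dotted lines the level for testing. Pecam1 and Cldn1 are highest in resident Batf3-/- DC1, while the marker means there lie within or below the range of resident WT DC1.

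Some markers of another dendritic cell were also higher in resident Batf3-/- DC1. Of 8 markers of type 2 conventional dendritic cells (cDC2), 6 passed the filter in SDLN. In resident Batf3-/- against resident WT DC1, 2 were called higher: Clec10a by 2.42 ± 0.28 and Mgl2 by 1.38 ± 0.20. Over all genes tested, 1.84% were called in that comparison. Sirpa, which defines cDC2 and was gated out in SDLN, was 4.93 to 5.45 in resident Batf3-/- and 5.31 to 7.82 in resident WT DC1. The summed linear intensity of the list was 1130 to 1898 in resident WT and 1572 to 2123 in resident Batf3-/- DC1. It was 243 to 276 in migratory WT and 257 to 393 in migratory Batf3-/- DC1. In spleen it was 565 to 612 in WT Irf8VENUS-, 559 to 746 in WT Irf8VENUS+ and 998 to 1113 in Batf3-/- DC1, where Klf4 was called higher by 1.39 ± 0.22. Of all genes tested in spleen, 0.738% were called against WT Irf8VENUS+ and 0.559% against WT Irf8VENUS-. The part of cDC2 RNA in the results for Pecam1, Cldn1 and Cdh17 was not tested. Of 16 maturation genes, Ccr7 (by 1.62 ± 0.31), Ccl22 and Ccl17 were called higher in resident Batf3-/- DC1, beside the same 1.84% of all genes. The part of these maturation genes was not tested either.

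L1cam encodes a homophilic adhesion receptor known from growing nerve fibres that also takes part in dendritic cell passage across endothelium. In SDLN it was 6.33, 5.79 and 6.58 in resident WT, 6.64, 6.19 and 6.23 in resident Batf3-/-, and 6.18 and 5.92 in migratory WT DC1. In migratory Batf3-/- DC1 it was 8.86, 8.56 and 7.01. Only the last group stood clear of the others, and replicate 3 lay well below its other 2 arrays. The migratory Batf3-/- minus WT difference was 2.09 ± 0.43 (4.26-fold). Between arrays that share a title code it was 2.68 and 2.64, and without replicate 3 it was 2.66. The call was lost without migratory WT replicate 1 or migratory Batf3-/- replicate 1 or 2, with differences of 1.73 to 2.22. In resident DC1 it was 0.12 ± 0.39. Within Batf3-/- mice, migratory exceeded resident DC1 by 1.79 ± 0.39, again on arrays that selected the gene. In WT that difference was -0.18 ± 0.43. The spleen arrays ranged from 5.48 to 6.23, with a Batf3-/- minus WT Irf8VENUS+ difference of 0.27 ± 0.15.

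Alcam and Icam1 encode receptors that dendritic cells present to T cells, and both had signal on every array. Alcam in SDLN was 7.56, 7.61 and 7.52 in resident WT, 8.14, 8.08 and 7.65 in resident Batf3-/-, 7.34 and 6.68 in migratory WT, and 7.37, 7.09 and 7.24 in migratory Batf3-/- DC1. All migratory arrays lay below all resident arrays. Alcam fell in migratory Batf3-/- DC1 by 0.72 ± 0.20 (1.65-fold, limma adjusted p = 0.0117), and the call was lost when resident Batf3-/- replicate 1 or 2 was left out, with adjusted p up to 0.0529. In WT the difference was -0.55 ± 0.22 with limma adjusted p = 0.0537, which missed the threshold. It passed in 5 of 14 alternatives, among them leaving out migratory WT replicate 1 (-0.88), while without replicate 2 it was -0.22, and over the 14 the limma adjusted p ran from 0.0152 to 0.487. In spleen Alcam was 7.72 and 7.70 in WT Irf8VENUS-, 8.39, 8.13 and 8.31 in WT Irf8VENUS+, and 8.29, 8.29 and 9.06 in Batf3-/- DC1. The WT Irf8VENUS- arrays were the lowest 2.

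Icam1 in SDLN was 8.64, 8.52 and 8.79 in resident WT, 9.09, 8.78 and 8.15 in resident Batf3-/-, and 8.57 and 8.84 in migratory WT DC1. In migratory Batf3-/- DC1 it was 10.18, 10.03 and 8.72. Replicates 1 and 2 of that group were above every other array, while replicate 3 lay within the range of the other groups. Icam1 rose in migratory over resident Batf3-/- DC1 by 0.97 ± 0.34 (1.96-fold, limma adjusted p = 0.0398), although the groups overlapped. That call was lost in 7 of 15 alternatives, among them leaving out migratory Batf3-/- replicate 1 or 2 or resident Batf3-/- replicate 2 or 3, where the difference was 0.70 to 1.02, and over all 15 the adjusted p ran from 0.0003 to 0.149. Without replicate 3 the difference was 1.43. In spleen Icam1 ranged from 7.74 to 8.13, and its groups overlapped.

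The comparison of WT spleen DC1 with and without the reporter called no member. Between WT Irf8VENUS+ and WT Irf8VENUS- spleen DC1, limma called 0 of the 6 members tested and 0.0233% of the 12875 genes tested, while 7.91% of genes had an unadjusted p under 0.05. The differences were 0.52 ± 0.46 for Cldn1 (limma adjusted p = 0.823), 0.43 ± 0.22 for Alcam (limma adjusted p = 0.680), 0.16 ± 0.18 for Icam1, -0.04 ± 0.17 for L1cam, -0.14 ± 0.33 for Pecam1 and -0.24 ± 0.30 for Cdh17. With 2 arrays against 3, differences of the size of these SEs could not be detected.

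Between Batf3-/- and WT, the counts were these. In spleen, 2 members (Cldn1, Cdh17) were called higher and none lower against WT Irf8VENUS+, where 0.738% of all genes tested were called, and the same 2 against WT Irf8VENUS-, where 0.559% were. The median difference of the 6 members was 0.52 against WT Irf8VENUS+, beside -0.02 over all genes. In resident DC1, 3 members (Cldn1, Cdh17, Pecam1) were called higher, beside 1.84% of genes, and in migratory DC1 2 members (Cldn1, L1cam), beside 9.41%. Without migratory Batf3-/- replicate 3, Cdh17 and Icam1 were called there too (Icam1 1.40). These comparisons selected members, so nothing is read from the shares. The Cldn1 call in spleen was lost in 6 of 16 alternatives and the L1cam call in migratory DC1 in 5 of 14, while the 3 resident calls held in all 15 alternatives.

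Between migratory and resident DC1, 2 of 7 members were called in WT (F11r higher, Cldn1 lower), beside 49.2% of the 11931 genes tested. All 7 members that passed were called in Batf3-/- mice, 3 higher (F11r, L1cam, Icam1) and 4 lower (Cldn1, Cdh17, Pecam1, Alcam), beside 36.6% of genes. Cldn1 and Pecam1 were selected with resident Batf3-/- arrays and L1cam with migratory Batf3-/- arrays. Cdh17 passed the filter only through Batf3-/- arrays, so nothing is read from that count. In WT the median over all genes was -0.16, and centring each array on its median moved it to -0.32. That changed the share of called genes that were higher from 32.4% to 21.8%, and without the filter on dim genes it was 54.8%, with a median of 0.12. With the SD of each array's values as a term the genes called fell from 5870 to 1263, of which 58.1% were higher. Cldn1 was then at -0.79 and no longer called, F11r was at 3.91 and still called, and Icam1 (2.53) and Cdh17 (1.40) were called. The signs of Cldn1 and F11r were the same in each of these fits. The comparisons in WT and Batf3-/- mice share no arrays. The test of the difference between the 2 Batf3 effects called 1 member, Pecam1 (-2.57 ± 0.31, the migratory less the resident effect), beside 1.24% of genes. For Cdh17 that difference was -1.32 ± 0.31 and for L1cam 1.97 ± 0.58, neither called with all arrays. Both were called without migratory Batf3-/- replicate 3, at -1.06 and 2.54.

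**Figure D3:**
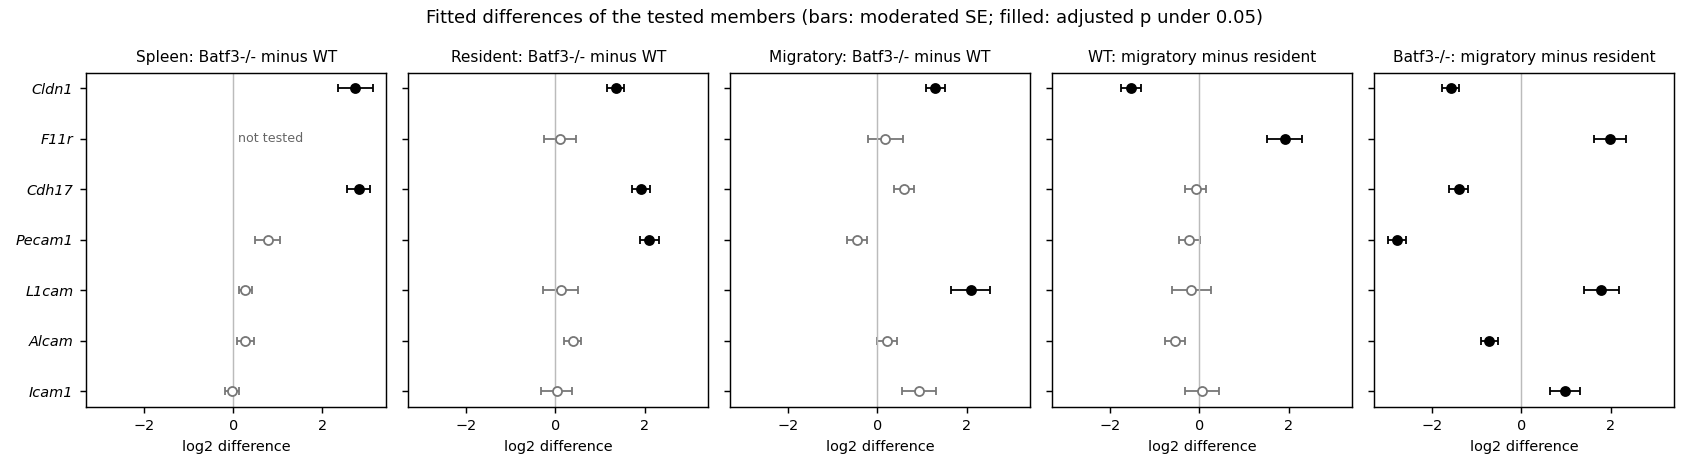
Fitted log2 differences of the 7 members tested in at least 1 table, in 5 comparisons; bars are moderated standard errors, filled points were called (limma adjusted p under 0.05) and open points were not. F11r was not tested in spleen. The first 3 panels are comparisons that selected members. In the last panel all 7 members are filled, on Batf3-/- arrays that also took part in selecting Cldn1, Pecam1 and L1cam.

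The fuller gene families show what surrounded the members in SDLN. Of 20 cadherin and catenin genes, 11 passed the filter, and in WT 1 was higher and 5 lower in migratory than in resident DC1, a share close to the 49.2% of all genes called there. The 1 that was higher was Cdh2, N-cadherin, a classical cadherin of nerve and muscle. It was 3.78 to 4.13 in resident WT, 3.92 to 4.41 in resident Batf3-/-, 8.19 and 7.40 in migratory WT and 7.67 to 8.43 in migratory Batf3-/- DC1. Migratory arrays lay far above resident arrays, with differences of the measured values of 3.82 ± 0.26 in WT and 3.99 ± 0.24 in Batf3-/- mice. All 6 resident arrays were below the level for testing and the gene passed through the migratory arrays alone, so these are descriptions. In spleen Cdh2 stayed between 3.91 and 4.17. The 5 that fell in WT included Vcl, vinculin (-1.55 ± 0.25), and Afdn, afadin (-0.96 ± 0.23), both links from junctions to actin. The Batf3-/- arrays gave 3 that rose and 3 that fell, the member Cdh17 among the latter, beside 36.6% of all genes called. Ctnnd1 encodes p120-catenin, which steadies cadherins at the membrane. It was called lower in Batf3-/- than in WT Irf8VENUS+ DC1, with differences of -1.18 ± 0.19 in spleen and -1.04 ± 0.16 in resident SDLN. Against WT Irf8VENUS- spleen DC1, Ctnnd1 was not called.

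Of 33 tight junction genes, 32 were measured in SDLN and 17 tested, and 4 were higher and 1 lower (Cldn1) in migratory than in resident WT DC1, a smaller share than over all genes. Among Batf3-/- arrays 3 were higher (F11r, Esam, Amotl1) and 1 lower, beside 36.6% of all genes called. Esam encodes a JAM-related molecule of endothelium and platelets. It was 4.77 to 5.17 on the resident arrays and 5.87 to 6.57 on the migratory arrays, with no overlap. The difference was 1.20 ± 0.19 in WT and 1.59 ± 0.17 in Batf3-/- mice. Cldn10 was higher in migratory WT DC1 by 1.30 ± 0.28, with its resident WT arrays below the level for testing. In spleen 15 of the genes were tested, and Cldn1 was the 1 called between Batf3-/- and WT Irf8VENUS+.

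Of 28 genes of the immunoglobulin adhesion family, 18 were tested in SDLN, and 3 were higher and 2 lower in migratory than in resident WT DC1, and 7 were higher and 3 lower in Batf3-/- mice. The Batf3-/- counts include the members L1cam and Icam1 among the higher and Pecam1 and Alcam among the lower. Pecam1 and L1cam were selected with these arrays, so nothing is read from the Batf3-/- share beside the 36.6% of all genes called. The WT share was lower than the 49.2% of all genes called there, and the difference was not tested. Vcam1, a ligand of the integrin VLA-4, rose by 1.81 ± 0.20 in WT and 2.31 ± 0.18 in Batf3-/- mice. Cadm1 encodes an adhesion molecule by which DC1 are recognised. It fell in migratory DC1, with differences of -1.83 ± 0.16 in WT and -1.96 ± 0.14 in Batf3-/- mice. The Batf3-/- minus WT Irf8VENUS+ difference was -0.90 ± 0.14 in spleen, -1.04 ± 0.14 in resident and -1.17 ± 0.16 in migratory SDLN, called in each. Against WT Irf8VENUS- spleen DC1, Cadm1 was not called. Among 21 desmosome and gap junction genes 6 were tested in SDLN, and Perp (1.39 ± 0.18) and Gjb2 (1.50 ± 0.33) were called higher and Pkp4 (-1.26 ± 0.20) lower in migratory WT DC1. Perp and Gjb2 were below the level for testing on all resident arrays, so their differences are descriptions. The share of the 6 tested that was called in WT is close to the 49.2% of all genes. The same counts in Batf3-/- mice were 2 higher and 1 lower, beside 36.6% of all genes.

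Several integrins that bind members were lower in migratory DC1. Of 16 partner genes 14 were tested, and 9 were lower and 1 higher in migratory than in resident WT DC1, beside 7 and 2 in Batf3-/- mice. Over all genes 49.2% were called in WT and 36.6% in Batf3-/- mice, and most of those were lower too (3967 of 5870 and 2694 of 4371). The difference from these shares was not tested. The list also holds genes that are no integrins, among them Muc1, the 1 called higher in WT. In Batf3-/- mice Itga5 (-0.64 ± 0.28) and Itgav (-0.11 ± 0.18) were not called, and Itgb1 was called higher (1.12 ± 0.18). Itgal and Itgb2 form LFA-1, the receptor of ICAM-1 and JAM-A. Itgb2 was 9.29 to 9.36 in resident WT and 5.35 and 6.00 in migratory WT DC1, a difference of -3.65 ± 0.24, beside -3.10 ± 0.21 in Batf3-/- mice. Itgal fell too, with -3.51 ± 0.29 in WT and -2.91 ± 0.26 in Batf3-/- mice. Itgb7, whose product joins that of Itgae to bind E-cadherin, had differences of -2.57 ± 0.24 and -2.88 ± 0.21. Itgae, chosen after its values were seen, had differences of -2.19 ± 0.33 and -2.38 ± 0.30. Between Batf3-/- and WT DC1 of 1 population, none of these 4 was called. Of 16 maturation genes 13 were called higher in migratory than in resident WT DC1, where 1903 of the 11931 genes tested were. All 6 B cell markers that passed the filter were called higher too, 3 of them below the level for testing on all resident arrays. The summed intensity of the B cell list was 140 to 193 in resident and 434 and 548 in migratory WT DC1. The part of B cell RNA in the WT differences was not tested. Between Batf3-/- migratory and resident DC1, 2 of the 6 B cell markers were called higher, beside 1677 of the 11931 genes tested. The summed intensity of 11 fibroblast and reticular cell markers was 364 to 369 in resident and 850 and 1087 in migratory WT DC1. It was 343 to 373 in resident and 477 to 738 in migratory Batf3-/- DC1. That of 9 T cell markers was 567 to 593 in resident and 717 and 1296 in migratory WT DC1. In Batf3-/- mice it was 647 to 1086 and 562 to 955. The part of such RNA in the rises of Cdh2, Esam and Vcam1 was not tested.

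**Figure D4:**
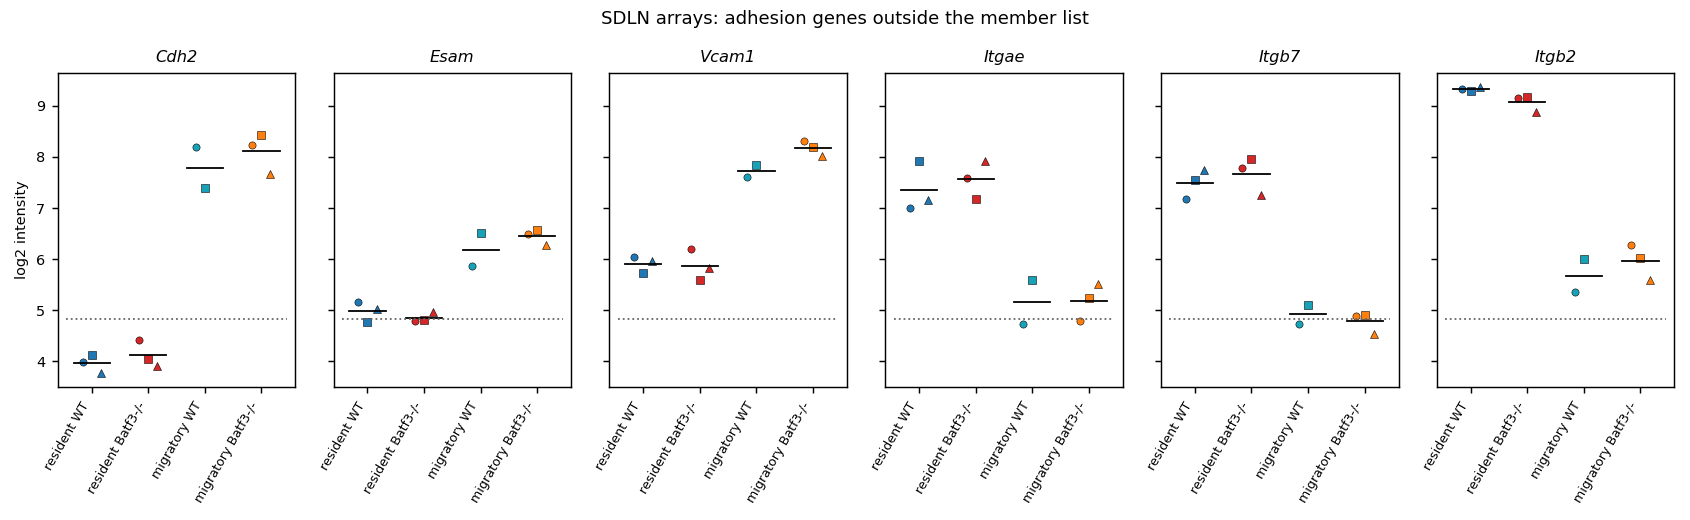
Log2 intensity on each SDLN array of 6 adhesion genes outside the member list; marker shapes are replicates, black bars group means and dotted lines the level for testing. Cdh2, Esam and Vcam1 are higher on all 5 migratory than on all 6 resident arrays, and Itgae, Itgb7 and Itgb2 are lower.

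The genes whose log2 values followed a member most closely over the 11 SDLN arrays are named by Pearson's r as a description. These arrays share groups, so any gene that differs between the same groups scores high. For Cldn1 they were Gfra2 (0.97), Pak2 and Lyst, for Cdh17 Havcr1 (0.97), Ccdc9 and Ank1, and for Pecam1 P2ry13 (0.96), Klrb1b and Gpr82. For L1cam they were Tmem131l (0.96), Plxnd1 and Inpp5f, and for F11r Csf1 (0.98), Jag1 and Mfge8. For Alcam they were Adssl1 (0.95), Pnma1 and Rap1gap2, and for Icam1 Mapkbp1 (0.98), Mvp and Dhx57. Over the 8 spleen arrays they were Wrn (0.98), Vim and Glul for Cldn1, Nnt (0.98), Fgr and Cybb for Cdh17, Rdh13 (0.99), Nfat5 and Castor2 for Pecam1, and Arrb2 (0.97), Dock10 and Sh3glb1 for Alcam.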

How the data were processed

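RNA of sorted mouse DC1 was extracted with RNAqueous-Micro and prepared with the GeneChip WT Pico kit, per the labels' protocols. The deposited spleen table holds linear intensity values and the deposited SDLN table log2 values, both made by RMA per the submitters' processing notes, which name no version. Linear values were put on the log2 scale. The tables hold 41345 and 35556 probe sets, of which 23521 and 21789 have 1 symbol, 1814 and 1621 several and 16010 and 12146 none. Updating by gene identifier matched 23328 and 21698. The brightest probe set stood for each gene. Genes at or above the table's median on at least 2 arrays were tested (12875 and 11931) in R 4.3.3 with limma 3.58.1 (lmFit, contrasts.fit, eBayes with trend), all arrays of a table sharing 1 spread, the spleen fit with the sort gate as a term, p-values adjusted over all genes. The fit was tested on simulated data. The number of arrays limits precision.

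The members, gene lists and tests were chosen with earlier results of these data known. Named genes are the members, from each family list the 3 called genes with the largest difference and up to 2 with the highest mean (the brightest where none was called), the first 3 markers of each marker list, the gate genes, Batf3, and the 3 genes most correlated with each member that passed the filter and spanned at least 1 log2 unit. Arrays of 1 replicate number share a title code in SDLN. With 3 pairs and r above 0.1 in each as the rule, the number would pair migratory with resident Batf3-/- DC1 (r = 0.416, 0.210 and 0.479). The main fits did not use this pairing: their differences, SEs and p-values are unpaired, and the replicate block was run as an alternative. Differently numbered arrays of these groups also passed 0.1 (resident 1 with migratory 2 at 0.184, resident 2 with migratory 1 at 0.218). Those with a replicate 3 were negative, at -0.451 to -0.279. The rule therefore cannot show that the arrays are paired. Migratory and resident WT DC1 have 2 pairs (r = 0.147 and 0.0971), which falls short of the rule. Alternatives were the filter, normalization, probe set rule, spread, array weights, the replicate block, the gate, the spread of each array as a term, and leaving out each array. Clec9a in spleen and Cd38 in both tables were not analysed here.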

Additional observations from a re-analysis of the deposited data

Results flagged for a closer look

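Pecam1 met the test of a difference between populations: its Batf3-/- minus WT difference was 2.11 ± 0.20 (log2) in resident and -0.46 ± 0.23 in migratory SDLN DC1, and the interaction term, migratory less resident, was -2.57 ± 0.31. Pecam1 was selected on the resident difference, so the term is given as a value. No group held 4 or more arrays, so no array was tested as an outlier.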

How the results depend on the processing

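The called members of the resident Batf3-/- comparison, of both comparisons of migratory with resident DC1 and of the reporter comparison kept their number within 1.5 times under every alternative run, though not always the same genes. Leaving out each array in turn gave 3 to 3 members for resident Batf3-/- minus WT, 2 to 3 for WT and 5 to 7 for Batf3-/- migratory minus resident DC1, and 0 for the reporter. For spleen Batf3-/- minus WT Irf8VENUS+, 2 members became 1 with only the groups compared and with only arrays sorted on CD24 and XCR1, and 1 to 2 when an array was left out. Against WT Irf8VENUS-, 2 became 1 with the stricter filter, with the replicate block and with only arrays sorted on CD24 and XCR1, and 0 to 1 when an array was left out. For migratory Batf3-/- minus WT, 2 became 0 with only the groups compared and with the SD of each array's values as a term, 4 with array weights and 4 with the replicate block, and 0 to 4 when an array was left out. The genes called there numbered 1123, but 7 with only the groups compared, 37 with the SD term, 2294 with array weights, 2464 with the replicate block, 2104 with no filter and 109 to 3570 when an array was left out, and the share that was higher moved from 75.8% to 62.4% with quantile normalization, 45.9% with no filter, 28.6% with only the groups compared and 16.2% with the SD term. For the difference between the Batf3 effects, 1 became 3 with array weights, 3 with the replicate block and 1 to 4 when an array was left out, and with the SD term the 1 called was Cdh17, with Pecam1 at -2.65 and not called. Cdh17 in WT migratory minus resident DC1 turned from -0.09 to 1.40 with the SD term. The cause of these changes was not tested. Blocking on the replicate number left all 7 members called in Batf3-/- migratory minus resident DC1. In SDLN same-numbered arrays share a title code of unstated meaning, and in spleen only a number. Counts over all genes moved by more than 1.5 times as follows. Against WT Irf8VENUS+ in spleen, 95 became 46 with only the groups compared, 262 with array weights and 25 with only arrays sorted on CD24 and XCR1. Against WT Irf8VENUS-, 72 became 164 with array weights and 38 with that gate. For the reporter, 3 became 18 with array weights and 0 with only the groups compared and with the replicate block, and 1 with no filter and with median centring. In resident DC1, 220 became 342 with only the groups compared, 981 with array weights and 429 with the SD term. In WT migratory minus resident DC1, 5870 became 8873 with no filter and 1263 with the SD term. The interaction's 148 became 297 with no filter, 73 with median centring, 1110 with array weights, 543 with the replicate block and 30 with the SD term.

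With 2 or 3 arrays a group, differences near the SEs given were not detectable, and members below the level for testing have no measured change.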

Other observations

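The tetraspanins that accompany EpCAM and other adhesion molecules changed between SDLN populations. Of 8 genes of that list 5 were tested, and in migratory against resident WT DC1 Cd63 rose by 5.26 ± 0.53 while Cd9 fell (-1.33 ± 0.16) and Cd82 fell (-1.06 ± 0.26). Among Batf3-/- arrays Cd63 rose by 3.08 ± 0.48 and Cd81 by 0.75 ± 0.17, while Cd9 (-0.74 ± 0.15) and Cd82 (-0.72 ± 0.23) fell. The calls between migratory and resident DC1 stand beside 49.2% of all genes called in WT and 36.6% in Batf3-/- mice. Cd63, a tetraspanin of late endosomes, was also called higher in resident Batf3-/- than in resident WT DC1, by 2.12 ± 0.48. Cd81 was called lower there (-0.85 ± 0.17), beside 1.84% of all genes called.

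Of 21 regulators of epithelial adhesion, 12 were tested in SDLN, and 5 were higher and 2 lower in migratory than in resident WT DC1. This share is near the 49.2% of all genes called there. Twist1, a repressor of E-cadherin in epithelium, was higher by 1.72 ± 0.29. Klf4, a factor of epithelial barriers, was lower (-2.61 ± 0.32), and so was Tgfb1 (-1.59 ± 0.20). Between migratory and resident Batf3-/- DC1 5 were higher and 3 lower, beside 36.6% of all genes called. In migratory Batf3-/- against migratory WT DC1, Twist1 was lower (-1.38 ± 0.29) and Zeb1, another repressor of E-cadherin, was higher (1.40 ± 0.29). In that comparison 9.41% of all genes were called. The count there was unstable: 1123 became 7 with only the groups compared and 37 with the SD of each array's values as a term.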
